A study of Caenorhabditis elegans with 12 samples.

Results

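Whole-worm RNA was compared between Caenorhabditis elegans fed vha-6 RNAi (3 libraries) and worms fed vha-19 RNAi (3 libraries), which are 6 of the 12 libraries of the study. The comparison was defined by these treatments and not by any measured value, and it covers all 18467 genes of the deposited count table. All worms were the laboratory strain N2 with a wild-type genotype. They were placed on RNAi food as L1 larvae and collected as L4 larvae or young adults after 2.5 days at 20 °C. The food of both groups was 25% bacteria carrying the named RNAi and 75% control bacteria, so every worm in the comparison also ate control bacteria. The 3 control RNAi and 3 vha-16 RNAi libraries of the same study are given beside the compared groups as levels only. RNAi by feeding acts in most tissues, and the labels do not restrict it to a tissue. The RNA was polyA-selected, and each library held 22370521 to 22378536 reads in genes under vha-6 RNAi and 22464039 to 22511835 under vha-19 RNAi.

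The vacuolar H+-ATPase (V-ATPase) is a rotary pump that spends ATP in its cytosolic V1 sector to move protons through its membrane-embedded V0 sector into lysosomes, endosomes and, at some surfaces, out of the cell. In the worm intestine, which is at once gut, liver and fat depot, the pump acidifies lysosome-related organelles and the brush-border side of the cells, and acid pH is what lysosomal proteases, lipases and glycosidases work at. VHA-6 is an a subunit of V0 that is made in the intestine and sits on its luminal membrane. VHA-19 is an accessory subunit related to mammalian Ac45 and is used more widely. Comparing the treatments asks how the transcriptome differs when the pump is depleted through a gut-specific subunit or through an accessory subunit.

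Levels are given in CPM, the reads of a gene scaled to a common library size, after TMM scaling (trimmed mean of M-values), which lines up the bulk of genes between libraries. Means are given ± SD over 3 libraries. Differences are log2 fold changes, vha-6 RNAi minus vha-19 RNAi, with their standard error (SE), so a positive value means a higher level under vha-6 RNAi. A gene is called when edgeR's quasi-likelihood test gave a Benjamini-Hochberg adjusted p under 0.05 over all 17043 genes tested, and the remaining 1424 had too few reads. Of the tested genes, 9959 (58.4%) were called. Under vha-6 RNAi 4938 (29%) were higher and 5021 (29.5%) lower, and the median over all tested genes was 0.0028. Scaling by library totals moved the split of calls to 3679 higher and 6389 lower. Small differences are therefore common here. Counts of list members called at any size are to be read against the 29% and 29.5% above. Calls of 2-fold or more were 1072 higher (6.29%) and 1191 lower (6.99%). Calls of 4-fold or more were 447 higher (2.62%) and 339 lower (1.99%). A list near these shares is not set apart from the tested genes at large. Where a list of genes below has 0 members called in a direction by edgeR, it also had 0 at an unadjusted p under 0.05, by the Wald test of DESeq2 and by limma-voom, except that the elongase and desaturase family had 1 lower member at an unadjusted p under 0.05 and by limma-voom. With library totals that family, the oxidative phosphorylation list and the mitochondrial ribosomal protein list each had 1 lower member. In 10772 genes (63.2%) the libraries of the groups did not overlap. The first principal component of the 6 libraries held 89.7% of their variance and separated the treatments, with the second at 2.71%. The labels do not say whether replicates were separate cultures, so the p-values speak only to variation among the libraries sequenced, which could be technical in origin. The biological coefficient of variation was 2.99%. In RNA from whole worms, fewer cells of a type and less RNA per cell cannot be told apart.

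The targeted genes gave an uneven check of the labels. vha-19 (chromosome IV, 3369197 to 3373485, WBcel235) was at 796, 781 and 767 CPM under vha-6 RNAi and 224, 223 and 206 CPM under vha-19 RNAi. The groups did not overlap, and the log2 difference was 1.85, SE 0.0338 (edgeR adjusted p = 1.33e-31). The control mean lay between them at 469.5 ± 6.82 CPM. vha-6 (chromosome II, 11435210 to 11438452) was at 89.2, 98.5 and 93.3 CPM under vha-6 RNAi and 114, 118.7 and 114 CPM under vha-19 RNAi. All 3 libraries of its own knockdown lay below all 3 of the other, but the log2 difference was only -0.30 (SE 0.0368), and the vha-19 RNAi libraries were also far below the control mean of 401 ± 4.78 CPM. vha-16, the d subunit of V0, was targeted in neither group. It stood at 896, 854 and 862 CPM under vha-6 RNAi and 371, 384 and 382 CPM under vha-19 RNAi, a log2 difference of 1.1999, with a control mean of 441 ± 12.1 CPM and 269 ± 7.06 CPM in its own knockdown.

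Other subunits of the pump were, with few exceptions, higher under vha-6 RNAi than under vha-19 RNAi. Of the 12 genes of the membrane sector and its accessory subunits, targets included, 10 were higher and 2 lower, with a median log2 difference of 1.16. Of the 10 genes of the cytosolic sector 8 were higher, all by 2-fold or more, and 2 were lower, with a median of 1.40. The catalytic A subunit gene vha-13 was at 1564, 1564 and 1599.9 CPM under vha-6 RNAi and 488, 496 and 491 CPM under vha-19 RNAi. The B subunit gene vha-12 was at 1388, 1339 and 1379 CPM under vha-6 RNAi and 359, 363 and 357 CPM under vha-19 RNAi. Neither gene's groups overlapped, and both control means lay between them, at 906 ± 38.2 and 669.9 ± 10.2 CPM. The stalk E subunit gene vha-8 had a log2 difference of 1.67 (SE 0.0337) and the C subunit gene vha-11 1.52 (SE 0.0324). The H subunit, which couples the sectors, is encoded by a pair of genes in the worm, and these went opposite ways. vha-15 was higher by 1.44 on the log2 scale, while vha-18 was lower, at 37.6, 37.7 and 39.4 CPM under vha-6 RNAi and 52.3, 56.5 and 57.3 CPM under vha-19 RNAi (log2 difference -0.53, SE 0.0444).

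Within the membrane sector the proteolipid c subunits that form the rotor were higher. vha-2 had a log2 difference of 1.43 (SE 0.0304), vha-3 1.41 and vha-1 1.14. vha-2 and vha-3 encode the same protein, and the counting of reads shared by them is not given in the sources used here, so their separate values are uncertain. The second accessory subunit gene, vha-20, was at 420.0, 418 and 431 CPM under vha-6 RNAi and 142, 136 and 138 CPM under vha-19 RNAi, with a log2 difference of 1.61. The a subunit, which carries the proton path and sets where the pump is placed, has 4 genes in the worm, and these differed among themselves. vha-5, known from the excretory canal and epidermis, was higher by 1.17 on the log2 scale, from 97.7 ± 2.03 to 220.0 ± 3.37 CPM. vha-7 was higher by only 0.41, and unc-32, the neuronal form, was lower by a log2 difference of -0.16 (SE 0.0339). spe-5, a B subunit form of spermatocytes, was lower as well, at 15.1, 15.9 and 15.03 CPM under vha-6 RNAi and 28.9, 27.04 and 25.7 CPM under vha-19 RNAi.

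**Figure D1:**
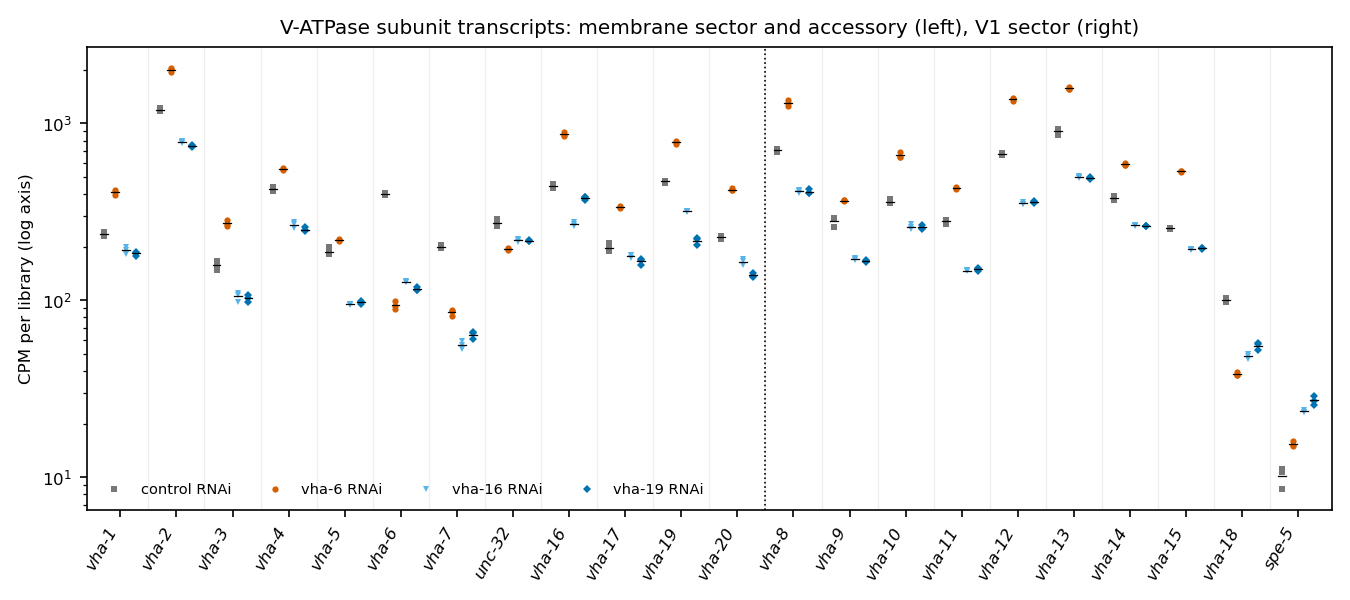
V-ATPase subunit transcripts in all 12 libraries, with the membrane sector and accessory subunits to the left of the dotted line and the V1 sector to the right. Each point is 1 library, the y axis is CPM on a log scale and black bars are means over 3 libraries. Most V1 genes are highest in the vha-6 RNAi libraries and lowest in the vha-16 and vha-19 RNAi libraries, with control between, while vha-18 and spe-5 do not follow that order.

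Among the gene lists, the widest gap in summed level was in the aspartyl proteases, relatives of cathepsin D that digest protein in the acid lumen of gut and lysosomes. Of 17 tested asp genes 14 were higher under vha-6 RNAi, all by 2-fold or more, 2 were lower and the median log2 difference was 3.98. Their summed level was 40100 to 41866 CPM in the vha-6 RNAi libraries, 4881 to 5047 under vha-19 RNAi and 8350 to 8807 in control. asp-1 (chromosome V, 19049562 to 19050752), an intestinal protease, was at 12755, 11932 and 12590.0 CPM under vha-6 RNAi and 748, 722 and 756 CPM under vha-19 RNAi. The groups were far apart, with a log2 difference of 4.07, SE 0.0379 (edgeR adjusted p = 9.82e-40). asp-2 was at 2804, 2646 and 2746 CPM under vha-6 RNAi and 89.9, 95.5 and 93.2 CPM under vha-19 RNAi and asp-5 at 3076, 3034 and 3049 CPM under vha-6 RNAi and 116, 111 and 116 CPM under vha-19 RNAi. Their log2 differences were 4.88 (SE 0.0423) and 4.74 (SE 0.0372), and for both the control mean lay between the groups, at 788 ± 18.4 and 692 ± 21.2 CPM. asp-3 and asp-6, named here after their values were seen, had mean levels of 6808 ± 194 and 9637 ± 136 CPM under vha-6 RNAi against 669.6 ± 8.45 and 2140.5 ± 36.6 CPM.

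Not every asp gene followed asp-1. asp-13 differed as much between the treatments, at 49.02, 58.3 and 55.2 CPM under vha-6 RNAi and 1.70, 2.85 and 1.67 CPM under vha-19 RNAi, yet both groups lay below the control mean of 498 ± 11.3 CPM. asp-4, which is known for its part in necrotic cell death, was lower under vha-6 RNAi, at 249, 259 and 259.5 CPM under vha-6 RNAi and 511, 544 and 515 CPM under vha-19 RNAi (log2 difference -1.03, SE 0.0342), and its vha-19 RNAi level was close to the control mean of 594 ± 7.55 CPM. asp-17 was lower too, by a log2 difference of -1.62. asp-10, now named hrg-7, encodes a secreted aspartic protease that carries heme status between tissues. Its level was 5262, 5252 and 5317 CPM under vha-6 RNAi and 477, 579 and 522 CPM under vha-19 RNAi, and the control mean was only 295 ± 10.5 CPM.

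Of the 15 cathepsin B- and L-type cysteine protease genes 10 were higher and 4 lower, with a median of 0.34. The intestinal cathepsin B gene cpr-1 was at 509, 512 and 511 CPM under vha-6 RNAi and 43.4, 40.99 and 40.8 CPM under vha-19 RNAi (log2 difference 3.61, SE 0.0384). Control, at 791 ± 19.4 CPM, was above both groups, whereas for cpr-5, at 1267 ± 30.2 and 181 ± 3.87 CPM, it was 170.5 ± 11.09 CPM and near the vha-19 RNAi mean. F57F5.1, now cpr-9, had a log2 difference of 2.95. Those lower were small in size, such as cpr-3 at -0.69 and cpl-1, the cathepsin L needed for yolk and cuticle processing, at -0.22.

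Enzymes that digest lipids, sugars and peptides inside lysosomes were the next group. Of 47 tested hydrolase genes 30 were higher, 22 of them by 2-fold or more, and 10 lower, 1 of them by 2-fold or more (27 higher and 15 lower with library totals). The median was 0.61. gba-4, which encodes a glucocerebrosidase, was at 217, 208 and 216 CPM under vha-6 RNAi and 2.14, 1.39 and 1.79 CPM under vha-19 RNAi. This log2 difference of 6.91 (SE 0.0662) was among the 15 largest positive differences of genes that averaged 5 CPM or more and had non-overlapping libraries, with a control mean of 119.8 ± 2.57 CPM. asah-1, the acid ceramidase gene, was at 446, 424 and 446 CPM under vha-6 RNAi and 9.82, 8.21 and 7.62 CPM under vha-19 RNAi (log2 difference 5.68). Both gene products act on sphingolipids. pcp-2, a prolyl carboxypeptidase, had a log2 difference of 4.93 and F32A5.3, now ctsa-3.1, a cathepsin A relative, one of 5.61. The 8 lysosomal acid lipase genes lipl-1 to lipl-8, set as a family after values were seen, had 5 higher and 2 lower with a median of 2.36. The most abundant, lipl-5, was at 561 ± 13.8 CPM against 49.1 ± 4.41 CPM (log2 difference 3.52).

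Lysosomal membrane proteins and transporters, listed apart from the pump subunits, went both ways. Of these 27 genes 10 were higher (37.0%) and 9 lower (33.3%), against 29% and 29.5% of all genes tested. The median of -0.05 turned positive when vha-6 RNAi replicate 2 or vha-19 RNAi replicate 3 was left out. The scavenger receptor gene scav-4 was the most different, at 41.04, 42.3 and 42.5 CPM under vha-6 RNAi and 2.18, 1.82 and 1.71 CPM under vha-19 RNAi (log2 difference 4.46). scav-1 was higher by 1.48 and cln-3.1, a relative of the human Batten disease gene, by 1.76. The mucolipin channel gene cup-5 was lower, with 41.8 ± 1.22 CPM against 66.3 ± 0.961 CPM, as were the lysosomal membrane glycoprotein gene lmp-1 (-0.43 on the log2 scale), the Niemann-Pick C1 relative ncr-1 (-0.63) and scav-3 (-1.15).

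Genes of lysosomal nutrient signalling and its transcription factors were more often lower than higher, mostly by less than 2-fold. Of 22 such genes 4 were higher, none of them by 2-fold or more. Lower were 14 (63.6%, against 29.5% of all genes tested), 2 of them by 2-fold or more, and the median was -0.14. hlh-30, the worm TFEB and a main activator of lysosome and autophagy genes, was at 158, 164 and 163 CPM under vha-6 RNAi and 179, 181 and 198 CPM under vha-19 RNAi (log2 difference -0.20, SE 0.0392), and was named after its values were seen. raga-1, a Rag GTPase that brings TORC1 to the lysosome, had a log2 difference of -0.49, and mxl-3, a repressor of lysosomal lipases, one of 0.65. The larger differences were lower levels of pqm-1, a zinc finger factor, at 124, 122 and 122 CPM under vha-6 RNAi and 251, 261 and 256 CPM under vha-19 RNAi, and of the forkhead factor pha-4, with a log2 difference of -1.05. Of 7 GATA factor genes of gut and skin 1 was higher and 3 lower (0 and 3 with library totals), although their median was 0.04 and turned negative with library totals, when only genes averaging 5 CPM were kept and without vha-6 RNAi replicate 3. The gut regulators elt-2 and elt-7 were lower by log2 differences of -0.30 and -0.55.

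**Figure D2:**
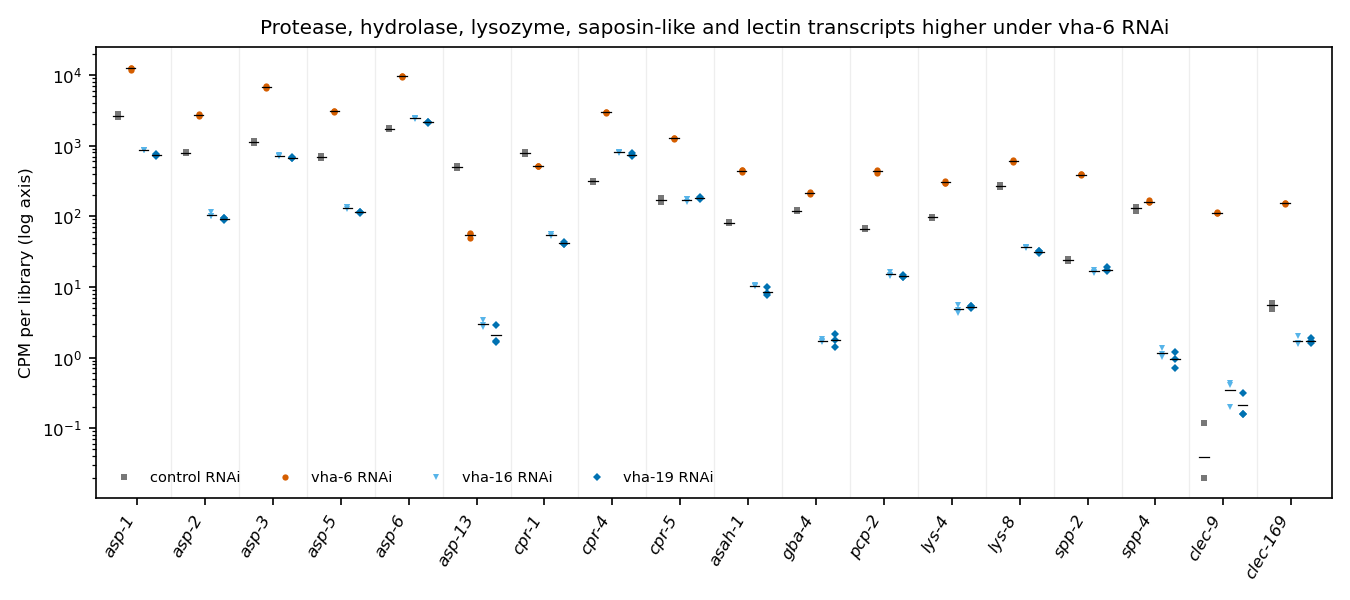
Levels of 18 protease, hydrolase, lysozyme, saposin-like and lectin genes, picked as higher under vha-6 RNAi than under vha-19 RNAi, in all 12 libraries. The y axis is CPM on a log scale, each point is 1 library, a library with no read is drawn at 0.02 CPM and black bars are means over 3 libraries. That the vha-6 RNAi points lie above the vha-19 RNAi points follows from this choice. Members of these families that were lower, such as asp-4, lys-3, spp-20 and clec-5, are not drawn. Control points lie above vha-6 RNAi for asp-13 and cpr-1 and near the bottom for clec-9.

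C-type lectins, which bind sugars and are a large family of secreted proteins in the worm, had 108 of 171 tested genes higher and 20 lower, with 73 higher and 10 lower by 2-fold or more and a median of 0.78. clec-9 (chromosome V, 16705044 to 16706649) had the largest positive log2 difference of any gene named by the rule, 9.003 (SE 0.11). Its level was 113, 110.1 and 111 CPM under vha-6 RNAi and 0.317, 0.159 and 0.159 CPM under vha-19 RNAi. clec-169 was at 152, 152 and 149.9 CPM under vha-6 RNAi and 1.70, 1.62 and 1.87 CPM under vha-19 RNAi, with a log2 difference of 6.45. By amount, clec-63 led the family, with 6639 ± 280.3 CPM under vha-6 RNAi, 1261 ± 34.8 CPM under vha-19 RNAi and 1166 ± 39.9 CPM in control. clec-5 went the other way and was at 10.5, 10.4 and 12.8 CPM under vha-6 RNAi and 222, 249.7 and 231 CPM under vha-19 RNAi (log2 difference -4.38).

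Of 50 antimicrobial effector genes 26 were higher and 18 lower. Families within this list were chosen after values were seen, and most held members of both directions. Among 9 lys genes, which encode lysozymes that cut bacterial cell walls, 8 were higher, 7 of them by 2-fold or more, and the median was 4.10. lys-4 was at 293, 300.3 and 312 CPM under vha-6 RNAi and 5.03, 5.35 and 5.32 CPM under vha-19 RNAi (log2 difference 5.85, SE 0.0554). lys-3 alone was lower, at 2.94, 2.94 and 2.726 CPM under vha-6 RNAi and 73.2, 72.4 and 68.0 CPM under vha-19 RNAi, and its log2 difference of -4.63 placed it among the 15 largest negative differences under the same conditions. Its neighbours lys-1 and lys-2, on the same stretch of chromosome V, were higher by 2.97 and 4.10 on the log2 scale.

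Saposin-like spp genes, whose products resemble pore-forming amoebapores, had 15 of 25 higher and 5 lower. spp-4 was at 157, 170.0 and 158 CPM under vha-6 RNAi and 0.950, 1.19 and 0.715 CPM under vha-19 RNAi, and the control mean of 129 ± 8.42 CPM was close to the vha-6 RNAi level. spp-2, at 388 ± 7.29 and 17.6 ± 1.13 CPM, had a control mean of 24.1 ± 0.869 CPM instead. spp-20 was opposite, at 0.384, 0.468 and 0.511 CPM under vha-6 RNAi and 88.0, 92.0 and 90.5 CPM under vha-19 RNAi (log2 difference -7.61, SE 0.107). All 8 tested cnc genes, for caenacin peptides of the epidermis, were lower under vha-6 RNAi, 6 of them by 2-fold or more, with a median of -2.50, or -2.08 when the member without reads in a group is set to 3 counts. cnc-4 was at 8.53, 7.66 and 7.54 CPM under vha-6 RNAi and 40.6, 44.4 and 39.5 CPM under vha-19 RNAi.

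Among the largest negative differences, the level under vha-6 RNAi was mostly nearer to control than the level under vha-19 RNAi. Of the 339 genes lower by 4-fold or more, 312 had a control mean nearer to the vha-6 RNAi mean than to the vha-19 RNAi mean on a log2 scale with 0.1 CPM added, and 245 had a control mean below both. The 447 genes higher by 4-fold or more were mixed, with control nearer to vha-6 RNAi in 246 and nearer to vha-19 RNAi in 201. In 442 of the 447 and 334 of the 339 the vha-16 RNAi mean lay nearer to vha-19 RNAi. These positions are descriptions, with no test.

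Y41C4A.11 was the most abundant of the 15 genes with the largest negative differences under those conditions. It was at 28.6, 26.6 and 26.7 CPM under vha-6 RNAi and 5421, 5715 and 5546 CPM under vha-19 RNAi, with a log2 difference of -7.67, SE 0.0869 and a control mean of 20.4 ± 7.66 CPM. rab-11.2, a small GTPase of recycling endosomes, was at 1.92, 1.83 and 2.13 CPM under vha-6 RNAi and 296, 282 and 280.1 CPM under vha-19 RNAi (log2 difference -7.19). arf-1.1, now named warf-1, a GTPase of the ARF family that recruits vesicle coats, was at 14.9, 11.49 and 12.5 CPM under vha-6 RNAi and 760.0, 783 and 734 CPM under vha-19 RNAi (log2 difference -5.87). The rule that named these 3 genes required libraries that did not overlap between the groups. For all 3 control was nearer to vha-6 RNAi. Others of the 15 were F22E5.6, at 1.01 ± 0.219 and 218 ± 1.86 CPM, sdz-35, at 2.64 ± 0.0716 and 171 ± 6.11 CPM, and the arrestin-domain gene arrd-11, at 0.185 ± 0.0888 and 31.7 ± 0.966 CPM. Y37H2A.11 had the lowest log2 difference of the 15, -8.05, from 46.7 ± 2.38 CPM under vha-19 RNAi.

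The wider trafficking system was lower under vha-6 RNAi too, by less. Of 73 genes of endosome sorting and small GTPases 5 were higher, none by 2-fold or more, and 52 were lower, 17 of them by 2-fold or more, with a median of -0.41. rab-11.1, the widely used paralogue of rab-11.2, was at 799.8, 749.6 and 796 CPM under vha-6 RNAi and 3209, 3269 and 3151 CPM under vha-19 RNAi (log2 difference -2.04, SE 0.0321), against a control mean of 1034 ± 22.4 CPM. Of the 20 rab genes, set as a family after values were seen, 16 were lower and 0 higher. Among those that were higher in the wider list was vps-36, of the ESCRT-II complex that sorts ubiquitinated cargo, with a log2 difference of 0.50.

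Autophagy genes were lower under vha-6 RNAi than under vha-19 RNAi almost without exception. Of 27 tested, 26 were lower, 5 of them by 2-fold or more, and 0 were higher, with a median of -0.67. Their summed level was 2057 to 2067 CPM under vha-6 RNAi and 3923 to 3991 under vha-19 RNAi. In control it was 2177 to 2227 CPM, nearer to vha-6 RNAi. sqst-1, the worm p62 that brings ubiquitinated cargo to autophagosomes, was at 309, 299 and 309 CPM under vha-6 RNAi and 1064, 1054 and 1086 CPM under vha-19 RNAi (log2 difference -1.80, SE 0.0344), and both groups were above the control mean of 63.6 ± 4.63 CPM. bec-1, the worm Beclin that starts autophagosome formation, was at 30.7, 27.8 and 27.9 CPM under vha-6 RNAi and 77.6, 73.1 and 77.4 CPM under vha-19 RNAi (log2 difference -1.40), and its control mean of 44.5 ± 1.91 CPM lay between them. epg-9, a subunit of the initiating kinase complex, had a log2 difference of -1.41, and atg-16.2, which helps attach LGG-1 to membranes, -1.31. lgg-1 itself, the Atg8 protein of the autophagosome membrane, was at 541 ± 3.51 against 949.9 ± 15.7 CPM and was named after values were seen.

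**Figure D3:**
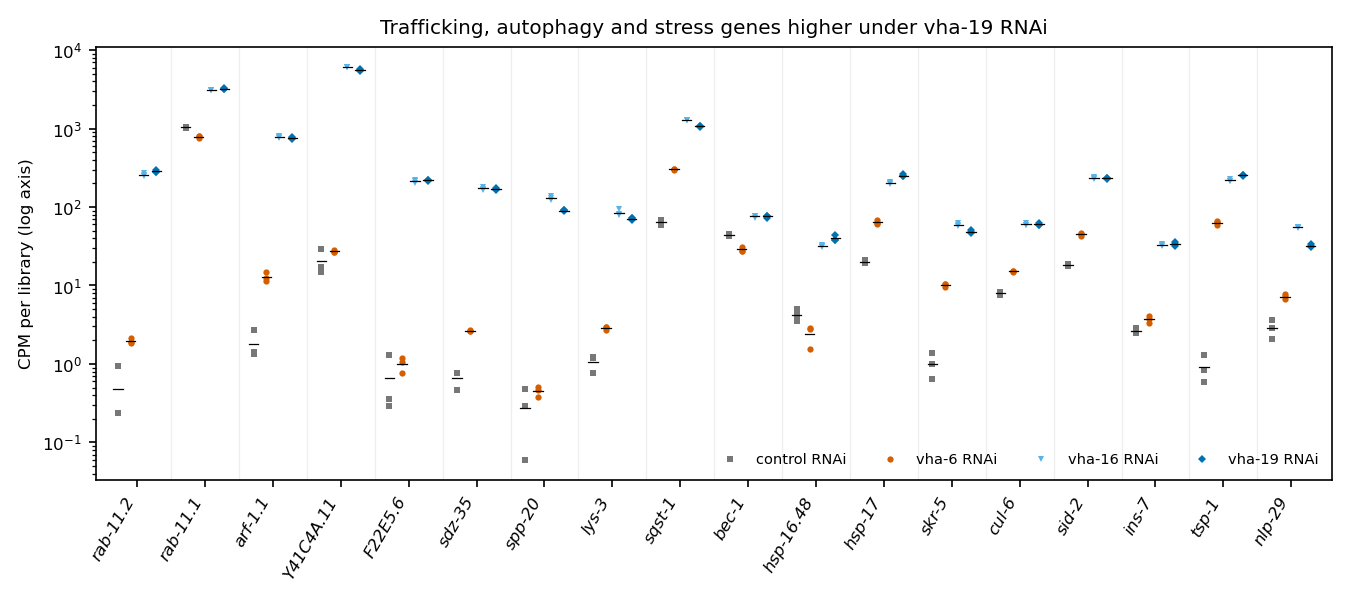
Levels of 18 genes that were lower under vha-6 RNAi than under vha-19 RNAi, in all 12 libraries. The y axis is CPM on a log scale, each point is 1 library, a library with no read is drawn at 0.02 CPM and black bars are means over 3 libraries. The vha-16 RNAi points lie close to the vha-19 RNAi points, and for rab-11.2, arf-1.1, Y41C4A.11, F22E5.6 and sdz-35 the vha-6 RNAi means lie within 1 decade of the control means.

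Several stress and quality-control systems were lower under vha-6 RNAi than under vha-19 RNAi. Of 33 proteasome subunit genes 32 were lower and 1 higher, none by 2-fold or more, with a median of -0.38. pbs-7, a core subunit, was at 96.5, 102 and 105 CPM under vha-6 RNAi and 171, 171 and 170.4 CPM under vha-19 RNAi (log2 difference -0.76), and both groups were below the control mean of 268 ± 1.37 CPM. Of 19 genes of the endoplasmic reticulum unfolded protein response 16 were lower and 1 higher, with a median of -0.33. Its sensor kinase gene ire-1 was at 117, 114 and 116 CPM under vha-6 RNAi and 295, 297 and 312 CPM under vha-19 RNAi (log2 difference -1.38, SE 0.0347), and the other sensor kinase pek-1 had a log2 difference of -0.96. The third sensor, atf-6, was the single higher member at 0.18, a call lost with library totals. enpl-1, the GRP94 chaperone, was at 1238 ± 44.0 and 2200.1 ± 20.6 CPM.

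Of 20 cytosolic heat-shock genes 6 were higher and 13 lower, with a median of -0.18. hsp-16.48, a small heat-shock protein gene, was at 1.54, 2.89 and 2.77 CPM under vha-6 RNAi and 43.6, 38.1 and 38.3 CPM under vha-19 RNAi (log2 difference -4.06). It has a near-identical copy, hsp-16.49, so reads may be split between them. hsp-17 was at 67.9, 62.4 and 61.2 CPM under vha-6 RNAi and 247, 260.0 and 246 CPM under vha-19 RNAi. hsf-1, the heat-shock transcription factor, had a log2 difference of -0.44, and hsp-70 was higher at 0.50.

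Genes that respond to intracellular pathogens, a programme of ubiquitin ligase parts and pals and chil genes, had 9 of 60 higher and 28 lower, with a median of -0.38. By 2-fold or more 8 were higher and 14 lower. The cullin cul-6 was at 15.4, 15.3 and 14.7 CPM under vha-6 RNAi and 59.4, 62.1 and 58.2 CPM under vha-19 RNAi and its partner skr-5, a Skp1 relative, at 10.6, 10.4 and 9.54 CPM under vha-6 RNAi and 46.6, 50.4 and 47.7 CPM under vha-19 RNAi. Their log2 differences were -1.98 and -2.25. chil-9 and chil-22, of the chitinase-like chil family, were higher instead, by 6.77 and 4.22. F-box genes of the fbxa family, which recruit substrates to such ligases, were set as a family after values were seen. Of 175 tested, 84 were lower, 52 of them by 2-fold or more. The 36 higher ones included 16 by 2-fold or more, and log2 differences ran from -4.93 to 6.49.

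Energy metabolism ran the other way. All 43 called genes among 45 nuclear-encoded subunits of oxidative phosphorylation were higher under vha-6 RNAi, with a median of 0.66. With library totals 43 were higher and 1 lower. asb-2, a subunit of mitochondrial ATP synthase, was at 536, 536 and 547 CPM under vha-6 RNAi and 244, 253 and 247 CPM under vha-19 RNAi (log2 difference 1.12, SE 0.0351). gas-1, of complex I, had a log2 difference of 1.05, and ucr-2.2, of complex III, 1.08. H28O16.1, now atp-1, was at 2419 ± 14.05 and 1197 ± 5.76 CPM, with a control mean of 2960.0 ± 128 CPM above both. Of 70 mitochondrial ribosomal protein genes 59 were higher and 0 lower (45 and 1 with library totals), with a median of 0.28. Cytosolic ribosomal protein genes had 53 of 81 higher and 4 lower with a median of 0.10, which became -0.00014 with library totals, where 20 were higher and 11 lower.

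Mitochondrial chaperone and stress genes were also higher, 12 of 15, with 2 lower and a median of 0.48. hsp-60 was at 114, 116 and 118.6 CPM under vha-6 RNAi and 48.0, 47.5 and 49.2 CPM under vha-19 RNAi (log2 difference 1.27), and hsp-6 had a log2 difference of 0.98. For both, control was above both groups, at 383 ± 8.22 and 877 ± 16.2 CPM.

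Fat handling differed in its enzymes of synthesis and of breakdown. Of 80 genes of fatty acid metabolism 56 were higher and 13 lower, with a median of 0.35. ech-9, an enoyl-CoA hydratase gene of fatty acid breakdown, was at 548, 480.1 and 502 CPM under vha-6 RNAi and 4.24, 3.17 and 3.26 CPM under vha-19 RNAi (log2 difference 7.16, SE 0.0675), with a control mean of 1.497 ± 0.302 CPM. elo-6, an elongase for monomethyl branched-chain fatty acids, was at 308, 333 and 327 CPM under vha-6 RNAi and 41.7, 55.7 and 50.3 CPM under vha-19 RNAi (log2 difference 2.71), and control, at 605 ± 7.06 CPM, was above both. Of 16 desaturase and elongase genes, a family set after values were seen, 15 were higher and 0 lower (15 and 1 with library totals). acs-13, an acyl-CoA synthetase gene, was lower, at 170.1 ± 1.59 and 343 ± 9.31 CPM. In carbohydrate metabolism 25 of 30 genes were higher and 2 lower, with a median of 0.52. The trehalase gene tre-3 had a log2 difference of 2.195, and pck-1, for the gluconeogenic enzyme phosphoenolpyruvate carboxykinase, was at 439, 434 and 439.7 CPM under vha-6 RNAi and 153, 163 and 160.2 CPM under vha-19 RNAi. One-carbon and methionine cycle genes had 14 of 19 higher and 3 lower, led by cth-1, a cystathionine gamma-lyase gene, at 1.78.

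Among heme and metal genes the widest gap in CPM was that of asp-10 (hrg-7), which also counts in the sum of the aspartyl proteases. Its mean was 5277 ± 34.7 CPM under vha-6 RNAi and 526 ± 51.1 CPM under vha-19 RNAi. Of 33 genes 19 were higher and 8 lower, with a median of 0.37. hrg-3, whose product carries heme out of the intestine, was at 243, 247 and 253 CPM under vha-6 RNAi and 25.8, 30.7 and 24.3 CPM under vha-19 RNAi (log2 difference 3.202). The heme importer genes hrg-4 and hrg-1 had log2 differences of 3.16 and 1.24, and all of hrg-1, hrg-3, hrg-4 and asp-10 (hrg-7) had control means below the vha-6 RNAi mean. mtl-1, a metallothionein gene, was lower, at 4.10, 5.19 and 4.60 CPM under vha-6 RNAi and 23.9, 17.3 and 19.9 CPM under vha-19 RNAi, and its vha-16 RNAi mean of 44.5 ± 2.34 CPM was higher again. Among 13 genes of the hypoxia pathway 7 were higher and 0 lower. cysl-2, a cyanoalanine synthase gene induced by HIF-1, was at 224, 206 and 216 CPM under vha-6 RNAi and 55.9, 63.9 and 61.9 CPM under vha-19 RNAi.

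Detoxification enzymes had members called in both directions. UDP-glucuronosyltransferases, which conjugate sugars to toxic compounds, had 38 of 63 higher and 10 lower with a median of 0.58. By 2-fold or more 26 were higher and 2 lower. ugt-18 was at 281, 272 and 273 CPM under vha-6 RNAi and 10.5, 11.3 and 11.24 CPM under vha-19 RNAi (log2 difference 4.65), with 0.473 ± 0.158 CPM in control. Cytochrome P450 genes had 36 of 71 higher and 19 lower, from cyp-37B1 at 4.60 to cyp-13A5 at -2.13 on the log2 scale. Glutathione transferases had 15 of 47 in each direction, 31.9%, near the 29% and 29.5% of all genes tested. Of these, 12 higher and 3 lower were 2-fold or more. gsto-1, an omega-class enzyme, was at 371, 385 and 379 CPM under vha-6 RNAi and 39.0, 49.4 and 44.4 CPM under vha-19 RNAi. Of 17 genes against reactive oxygen 13 were higher and 1 lower. sod-3, a mitochondrial superoxide dismutase, had a log2 difference of 1.07, and the lower member was sod-4, an extracellular form, at -0.90.

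Of 209 nuclear hormone receptor genes 45 were higher and 90 lower, with a median of -0.14. nhr-31, known to be needed for V-ATPase subunit expression in the excretory canal, was among the higher ones. It was at 385, 370.2 and 374 CPM under vha-6 RNAi and 93.0, 92.8 and 94.4 CPM under vha-19 RNAi (log2 difference 2.01, SE 0.0331), with 71.0 ± 2.11 CPM in control. In the insulin pathway 7 of 40 genes were higher and 14 lower (4 and 16 with library totals), with a median of -0.04. By 2-fold or more 1 was higher and 6 lower. ins-7, an insulin-like peptide of the gut, was at 4.05, 3.28 and 3.75 CPM under vha-6 RNAi and 33.3, 35.7 and 31.6 CPM under vha-19 RNAi (log2 difference -3.18), and the kinase gene akt-2 had a log2 difference of -1.62. Peptide and amino acid transporter genes had 12 of 24 higher and 3 lower (8 and 4 with library totals), and pept-1, which takes up dipeptides in the gut, was at 342 ± 9.01 and 237 ± 5.66 CPM. Tetraspanins had 6 of 21 higher (28.6%) and 7 lower (33.3%), near the shares of all genes tested (3 and 7 genes with library totals). tsp-10 was higher by 5.70 and tsp-1 lower, at 66.3, 58.3 and 64.4 CPM under vha-6 RNAi and 250.3, 259 and 253 CPM under vha-19 RNAi, where control was 0.908 ± 0.370 CPM. Of 2 tested pud genes 1, pud-3, was called higher and 0 lower, but its libraries overlapped between the groups, the call was lost with library totals, and their summed level was at most 1.6 CPM in the compared libraries.

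The machinery through which the RNAi itself acts also differed in 1 gene by more than 2-fold. Of 34 genes of RNA interference and Argonaute pathways 13 were higher (38.2%) and 11 lower (32.4%), against 29% and 29.5% of all genes tested. Library totals gave 6 higher and 16 lower and turned the median of 0.02 negative. sid-2, which takes up double-stranded RNA from the gut lumen, was at 46.8, 43.03 and 45.3 CPM under vha-6 RNAi and 225, 237 and 232 CPM under vha-19 RNAi (log2 difference -2.36, SE 0.0392), and the control mean was 18.3 ± 0.581 CPM. sid-3, a kinase for import of double-stranded RNA, had a log2 difference of -0.96. Whether uptake of the RNAi food differed between the treatments was not tested.

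**Figure D4:**
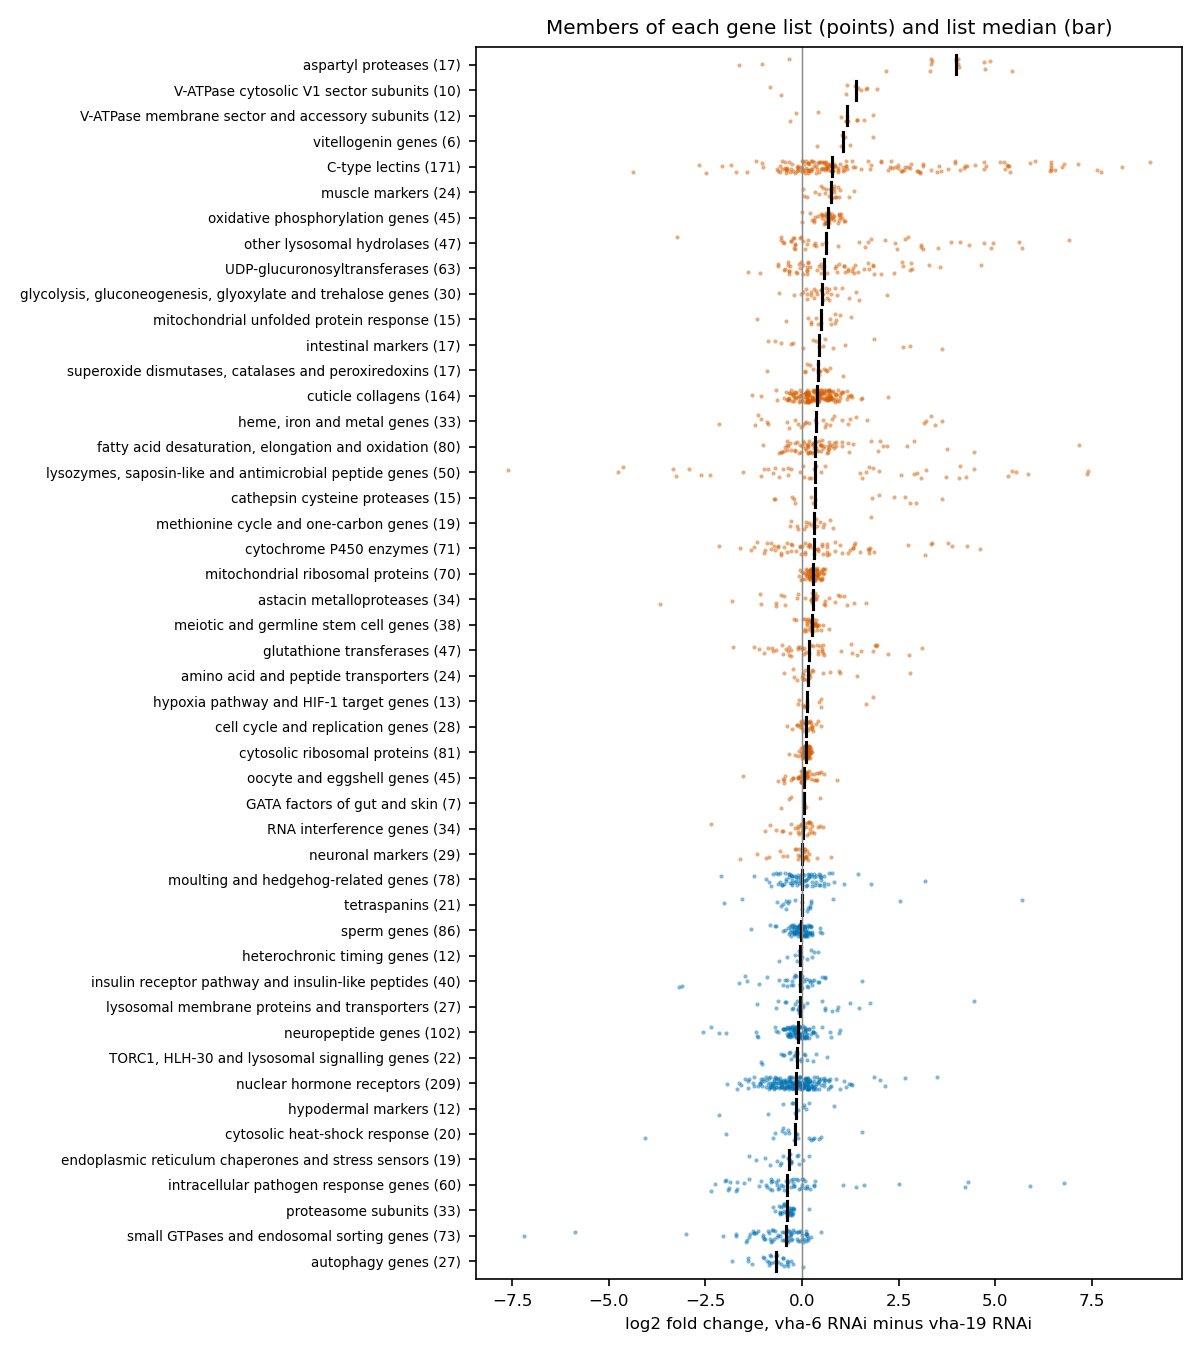
Log2 difference, vha-6 RNAi minus vha-19 RNAi, for every tested member of the 48 gene lists with 6 or more members. Each point is 1 gene, jittered in height, black bars are list medians, the number of members is in brackets, and lists are ordered and coloured by the sign of the median. The asp list has the highest median, 3.98, and the autophagy list the lowest, -0.67.

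Markers of tissues and of developmental stage were called to unequal extents, some lists no more often than the 29% higher and 29.5% lower of all genes tested. Intestinal markers had 11 of 17 higher and 5 lower with a median of 0.43, and their summed level was 4380 to 4390 CPM under vha-6 RNAi and 3917 to 3941 under vha-19 RNAi. The gut esterase gene ges-1 was at 56.996, 62.9 and 60.6 CPM under vha-6 RNAi and 9.86, 7.69 and 8.62 CPM under vha-19 RNAi (log2 difference 2.79), while ifd-2, an intestinal intermediate filament gene, was lower by -0.89 on the log2 scale. Muscle structural genes had 21 of 24 higher and 0 lower, with a median of 0.75 and sums of 15075 to 15422 against 8197 to 8451 CPM. unc-54, the main body wall myosin, was at 3109, 3281 and 3089 CPM under vha-6 RNAi and 1318, 1309 and 1418 CPM under vha-19 RNAi (log2 difference 1.23), and tnt-2, a troponin T gene, had a log2 difference of 1.36. Epidermal markers had 3 of 12 higher and 6 lower (1 and 7 with library totals) with a median of -0.15, and 1243 to 1302 against 1355 to 1469 CPM in sum.

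Neuronal markers had 2 of 29 higher (6.90%) and 7 lower (24.1%), or 5 and 7 with DESeq2 size factors. Both shares were below those of all genes tested, 29% and 29.5%. The median was 0.01 and turned negative with library totals and without vha-6 RNAi replicate 2 or vha-19 RNAi replicate 1. unc-64, the syntaxin of vesicle fusion, had a log2 difference of -1.17, and aex-3, a regulator of RAB-3 also known for defecation behaviour, -1.59. Only 2 of the 29 markers were lower by 2-fold or more and 20 were not called, and the highest log2 difference was 0.74. Neuropeptide genes had 9 of 102 higher (8.82%) and 39 lower (38.2%), with a median of -0.11. DESeq2 size factors gave 10 higher and 29 lower, and library totals 7 and 61, so the count of lower members depended on the scaling. The lowest of those named were epidermal rather than neuronal, among them nlp-29, at 7.25, 6.64 and 7.75 CPM under vha-6 RNAi and 33.6, 30.5 and 31.8 CPM under vha-19 RNAi, and nlp-34, with a log2 difference of -2.36.

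Yolk and oocyte genes lay far below the control level in both groups. Yolk protein genes had 5 of 6 higher and 0 lower, with a median of 1.07, but their sum was 8698 to 9742 CPM under vha-6 RNAi, 3919 to 4552 under vha-19 RNAi and 103677 to 105346 in control. vit-2 was at 5187, 5783 and 5384 CPM under vha-6 RNAi and 2301, 2681 and 2629 CPM under vha-19 RNAi (log2 difference 1.103) and vit-5 at 123 ± 14.8 and 34.1 ± 2.29 CPM, with 13747 ± 226 CPM in control. Oocyte and eggshell genes had 15 of 45 higher (33.3%) and 11 lower (24.4%), or 9 and 17 with library totals. These shares were near the 29% and 29.5% of all genes tested. The median of 0.04 turned negative with library totals and without vha-19 RNAi replicate 1. cbd-1, an eggshell protein gene, was at 308 ± 6.49 and 219 ± 3.45 CPM, with 2723 ± 30.1 CPM in control. The germline list had 30 of 38 higher and 1 lower, none by 2-fold or more, with a median of 0.25, and glh-1, a P granule helicase gene, was at 334 ± 4.37 against 230.5 ± 11.6 CPM. Sperm genes had 16 of 86 higher (18.6%) and 23 lower (26.7%), both below the shares of all genes tested. Their median of -0.04 turned positive with the size factors of DESeq2, while library totals gave 5 higher and 40 lower. Their sums were 2948 to 3013 and 3007 to 3172 CPM. Cell cycle genes had 13 of 28 higher and 3 lower, but 8 higher and 9 lower with library totals. Major sperm protein genes are nearly identical copies and their single values are uncertain.

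Genes of the cuticle and its moulting cycle gave a mixed account. Collagens, the main cuticle proteins, had 109 of 164 higher, 12 of them by 2-fold or more, and 18 lower, with a median of 0.38. col-81 was at 1039, 1001 and 1008 CPM under vha-6 RNAi and 410.3, 411 and 422 CPM under vha-19 RNAi (log2 difference 1.29), and col-113 was lower at -1.07. Hedgehog-related and patched-related moulting genes had 22 of 78 higher and 27 lower, and their median of -0.01 changed sign in 8 of the alternatives tried. Astacin metalloproteases of the nas family had 18 of 34 higher and 9 lower, and nas-10 was at 1.11, 0.894 and 1.49 CPM under vha-6 RNAi and 14.7, 15.7 and 14.5 CPM under vha-19 RNAi. Heterochronic timing genes had 5 of 12 higher and 4 lower (3 and 5 with library totals, 5 and 2 with DESeq2 size factors), none by 2-fold or more, and lin-14, which marks early larval fates, had a log2 difference of 0.42. How far developmental stage differed between the treatments was not tested.

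Some of the genes that differed lay side by side on the chromosomes. Runs of 4 or more adjacent tested genes that were called in the same direction by 2-fold or more numbered 20 for higher and 18 for lower genes, a measure chosen after values were seen. The longest held 14 clec genes on chromosome V (16839121 to 16869840), with log2 differences from 3.97 to 8.29. Its most abundant member clec-26 was at 8.28 CPM under vha-6 RNAi and 0.132 CPM under vha-19 RNAi. clec-23, clec-32 and clec-33 had no read under vha-19 RNAi, and against 3 counts over that group they were at least 43.3-fold, 14.7-fold and 27.6-fold higher. The tested genes flanking the run, tni-3 and F09C6.3, had log2 differences of 0.74 and -0.78.

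A second lectin run, on chromosome IV (3922165 to 3947362), held clec-67, clec-69, clec-70, clec-71, clec-174 and clec-72. clec-67 was its most abundant member at 301 and 8.62 CPM. The next gene, clec-73, broke the run with a log2 difference of 0.23, and beyond it clec-74, clec-75, clec-76 and clec-77 were higher again. On chromosome X (7314969 to 7320354) spp-3, spp-2, spp-6, spp-4 and spp-5 stood together, and asp-6, asp-12, asp-5 and asp-11 lay side by side on chromosome V (8267511 to 8280870) with str-135. asp-1 closed a run with asp-16, asp-15 and Y39B6A.21, whereas asp-17, just outside it, was lower. Members of such clusters are copies of each other, so reads may be shared among them.

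Among the lower runs, nlp-34, nlp-31, nlp-30, nlp-29 and nlp-28, which encode epidermal antimicrobial peptides, lay together on chromosome V (3978825 to 3988316). Their log2 differences ran from -2.36 to -1.14, and the adjacent nlp-27 was lower by less, at -0.70. fbxa genes formed lower runs on chromosomes II, III and V. By chromosome, genes called by 2-fold or more made up 10.1% (higher) and 9.83% (lower) of the tested genes of chromosome V and 2.78% and 4.59% of those of chromosome I, and none of the 13 tested mitochondrial genes.

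**Figure D5:**
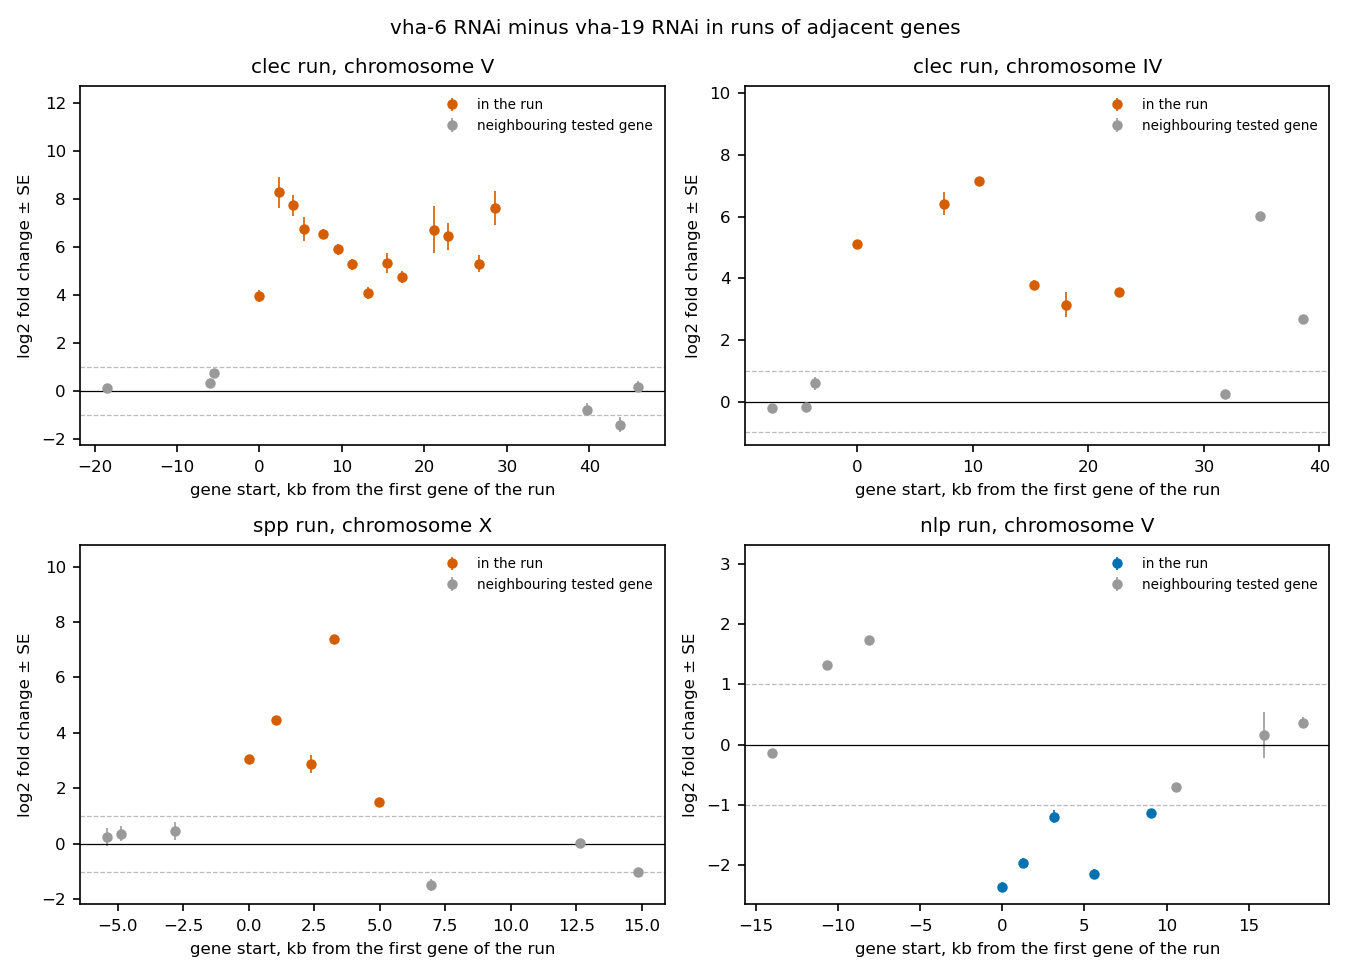
Log2 difference, vha-6 RNAi minus vha-19 RNAi, along 4 runs of adjacent genes and their nearest tested neighbours. The x axis is the start of each gene in kb from the first gene of the run, bars are the SE, coloured points belong to the run, grey points do not, and dashed lines mark 2-fold. Neighbours of the chromosome V lectin run and the chromosome X saposin run lie between -1.49 and 0.74, and fitted values of genes without reads in a group depend on the model.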

How the data were processed

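RNA from 12 whole-worm samples was sequenced, and 6 of them, 3 under vha-6 RNAi and 3 under vha-19 RNAi, are compared. The authors deposited 1 table of raw read counts per gene, not normalized. Per the submitters' processing notes the genome was WBcel235 (ce11), and the tools included edgeR 3.24.3 and STAR 2.73a. Which program counted reads, with which strand setting, and how genes were filtered is not given in the sources used here, so reads of overlapping or near-identical genes may be split. The 3 entries of unassigned reads were kept out of library sizes and tests. Of all reads in the table they held 9.45% to 9.54% (multiply aligned), 0.904% (ambiguous) and 0.995% (no feature) under vha-6 RNAi, and 8.06% to 8.10%, 0.986% and 1.27% under vha-19 RNAi.

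Counts were fitted in R 4.3.3 with edgeR 4.0.16: filterByExpr by treatment, TMM scaling, 1 mean per treatment in all 12 libraries (8 residual degrees of freedom), and a quasi-likelihood F-test of vha-6 against vha-19 RNAi with Benjamini-Hochberg adjustment over 17043 genes. The SE is the log2 difference over the square root of F. CPM uses the TMM-scaled library sizes. Within-group pairs of libraries differed by more than counting noise, with chi-square per degree of freedom from 1.52 to 2.92. Of the table's genes 17447 were matched to current names and 18340 to Ensembl release positions on WBcel235, and 10 symbols that had become dates were restored. Python 3.11.15 with matplotlib 3.10.9 drew the figures.

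The comparison and the 49 gene lists were chosen with earlier results of these data known, and 16 families were set after values were seen. Lists are described by counts and medians, with no set test. Genes named by rule are the targets, all V-ATPase subunits, the 15 largest positive and 15 largest negative differences with non-overlapping libraries and a mean of 5 CPM or more, and, by the same conditions, each list's 4 highest and 4 lowest members. Others were chosen after their values were seen, among them those named only for a run of adjacent genes. The fitting step was also run on simulated data with planted changes. Alternatives were DESeq2 size factors, library totals, other filters on low counts, a fit to 6 libraries, the replicate number as a block, the Wald test of DESeq2 1.42.0, limma-voom of limma 3.58.1, a threshold of 0.01 and leaving out each library.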

Additional observations from a re-analysis of the deposited data

Results flagged for a closer look

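Among reads not assigned to a gene, those that were ambiguous or in no feature were more frequent than in control in both groups, and those aligned to several places were less frequent. Ambiguous reads, which overlap more than 1 gene, were 0.904% of the reads under vha-6 RNAi and 0.986% under vha-19 RNAi, against 0.863% in control. Reads in no annotated feature were 0.995% and 1.27%, against 0.693%. For these, all libraries of both groups lay above all control libraries, with n = 3 in each, and SDs were at most 0.0223 percentage points. Multiply aligned reads were 9.45% to 9.54% under vha-6 RNAi and 8.06% to 8.095% under vha-19 RNAi, against 15.1% to 15.4% in control. Their part in any gene's difference was not tested.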

How the results depend on the processing

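The number of genes called stayed within 1.5 times the main 9959 under all alternatives run, from 8551 at a threshold of 0.01 to 10080 without a filter, with 9130 by the Wald test of DESeq2, 9910 by limma-voom and 9904 in the fit to 6 libraries. Leaving out 1 library at a time gave 9327 to 9613 calls, and 2289 to 2313 of 2-fold or more. Keeping only the 11561 genes with a mean of at least 5 CPM left 1395 calls of 2-fold or more (603 higher, 792 lower), against 2263 of 17043, since low genes were no longer tested. The split by direction moved with the scaling. Library totals gave 3679 higher and 6389 lower and moved the median of all genes by -0.0962, and DESeq2 size factors gave 5453 and 4612 and moved it by 0.0368. With the replicate number as a block 9939 genes were called. Same-numbered libraries did not deviate together (correlations 0.0269, 0.0165 and -0.0375), so the numbers are not read as pairs.

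Of the named genes' values under alternatives, 5154 kept direction and side of the threshold, 61 lost the call and 0 reversed. Those lost belonged to differences of at most 0.27 on the log2 scale, among those described atf-6. Of the 49 list medians 9 changed sign in at least 1 alternative, and their sizes in the main fit were at most 0.0961. With 22370521 to 22511835 reads in a library, genes near 0.05 CPM rest on 1 or few reads, and their fold changes are imprecise.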

Other observations

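Genes given here were looked up after values were seen. Some were taken for wide gaps in CPM outside the lists, others by name, by family or for a run of adjacent genes. Not every gene with a wide gap is described, and gst-26 to gst-29 belong to the glutathione transferase list. On the vha-19 RNAi side, dod-19 was at 427, 421 and 431 CPM under vha-6 RNAi and 2221, 2309 and 2262 CPM under vha-19 RNAi (log2 difference -2.41, SE 0.031), with a control mean of 192 ± 2.74 CPM. lec-8, a galectin that binds sugars of the host gut, was at 391, 349 and 364 CPM under vha-6 RNAi and 1422, 1525 and 1443 CPM under vha-19 RNAi, and srp-7, a serpin protease inhibitor, at 323, 287 and 302 CPM under vha-6 RNAi and 1120.1, 1107 and 1094 CPM under vha-19 RNAi. The groups of these 3 genes did not overlap, which follows from taking wide gaps and was so for 63.2% of all genes tested. Y54G2A.18 was at 129, 130.0 and 128 CPM under vha-6 RNAi and 2148, 2112 and 2106 CPM under vha-19 RNAi and B0024.4 at 76.2, 58.4 and 65.5 CPM under vha-6 RNAi and 992, 1041 and 992 CPM under vha-19 RNAi. The long noncoding RNA tts-1 was at 925 ± 62.7 under vha-6 RNAi, 1530.3 ± 48.7 under vha-19 RNAi and 25.4 ± 2.64 CPM in control, so both groups were above control and closer to each other. tbb-6, a divergent beta tubulin, was at 11.9, 10.04 and 11.46 CPM under vha-6 RNAi and 217, 229 and 228 CPM under vha-19 RNAi (log2 difference -4.33), and zip-10, a bZIP transcription factor, at 9.64, 9.79 and 8.94 CPM under vha-6 RNAi and 121, 125 and 120.4 CPM under vha-19 RNAi (log2 difference -3.69).

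On the vha-6 RNAi side the widest gap outside the lists was in C17F4.7, at 4134, 3988 and 4083 CPM under vha-6 RNAi and 960.4, 1039 and 989 CPM under vha-19 RNAi (log2 difference 2.03, SE 0.0359), with a control mean of 1471 ± 71.2 CPM. ant-1.1, the main ADP/ATP carrier of mitochondria, was at 5727, 5630.3 and 5479.7 CPM under vha-6 RNAi and 3356, 3462 and 3396 CPM under vha-19 RNAi. The dod-22 and dod-17 genes stood in a run of 7 higher genes on chromosome IV (12960436 to 12981991), and dod-22 was at 61.6, 57.5 and 60.4 CPM under vha-6 RNAi and 3.17, 4.12 and 4.29 CPM under vha-19 RNAi (log2 difference 3.95). gst-26, gst-27, gst-28 and gst-29 formed another on chromosome II (15163817 to 15169861). Of 23 nspb and nspc genes, short secreted peptides of a multigene family whose reads may be shared, 19 were higher, 10 by 2-fold or more, with a median of 0.91. acdh-1, an acyl-CoA dehydrogenase of the propionate shunt, was at 50.9 ± 4.53 and 31.2 ± 0.975 CPM, both far below the control mean of 1488 ± 47.2 CPM.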
